A study of Mus musculus with 4 samples.

Results

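The Sonic hedgehog pathway was examined in embryonic mouse brain with and without the transcription factors Sox4 and Sox11. Its members were given by name: Shh, Ptch1, Boc, Hhip, Smo, Sufu, Gli1, Gli2 and Gli3. All array probe sets annotated with exactly 1 of these 9 symbols were used, which gave 24 of the 45037 probe sets that are not array controls. Whole brains were taken on embryonic day 14.5 from mice of mixed background (129SvJ/C57Bl/6J), and their RNA was hybridised to 4 Affymetrix arrays. The 2 controls were homozygous for floxed Sox4 and floxed Sox11 (Sox4 flox/flox; Sox11 flox/flox). The 2 double knockouts had the same floxed alleles plus Brn4::Cre, a Cre recombinase transgene named for the gene Brn4 (Pou3f4). All 4 arrays therefore carry the floxed alleles, and the presence of Cre and the loss of both genes cannot be told apart. Each array is titled a biological replicate. The p-values set a change against the spread between arrays of a group. That spread is drawn largely from other probe sets of like signal (8.33 prior against 2 residual degrees of freedom). Which brain cells the driver reached, the sex of the embryos and the number of embryos per array are not stated in the labels.

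Hedgehog proteins are secreted signals that pattern the ventral neural tube and drive the division of neural progenitors. In the absence of ligand the receptor Ptch1 holds the membrane protein Smo inactive. Sufu then restrains the Gli transcription factors, and Gli3 is processed into a repressor. When Shh binds Ptch1 together with co-receptors such as Boc, Smo becomes active in the primary cilium and Gli2 turns on target genes. Gli1, Ptch1 and Hhip are themselves targets of the pathway, and their transcripts are widely read as a measure of its activity.

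The deposited values are probe set signals on a linear scale, and a signal is comparable between arrays for 1 probe set but not between probe sets. Median signals ran from 262.6 to 287.6 over the 4 arrays. Of the targeted genes, Sox11 fell at 6 of 6 probe sets, while of 6 tested Sox4 probe sets 4 fell, 1 rose and 1 did not pass. Markers of embryonic brain (the neuronal Tubb3, Dcx, Elavl3 and Neurod1 and the progenitor gene Sox2) lay among the brighter probe sets that were tested. Control 2 stood apart in sex-linked transcripts: Xist, which is made from the inactive X chromosome, read 25215 there at 1436936_s_at against 166.4, 259.7 and 1670 on control 1, knockout 1 and knockout 2. Knockout 2 thus lay between control 2 and the other arrays, as it did at Xist 1427262_at (228, against 6957 on control 2, 12.6 on control 1 and 6.4 on knockout 1). The Y-linked Eif2s3y read 43.5 on control 2 and 3484 to 3890 on the others. All 9 hedgehog members lie on autosomes.

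Gli3, the repressor of the pathway, was the 1 member that rose, and no member fell past the threshold. Probe sets were tested where their mean log2 signal lay above the 40th percentile of the array, which kept 13 of the 24 and 8 of the 9 genes. Of these 13, 1 rose, 0 fell and 12 did not pass an adjusted p under 0.05 in limma, a linear model fitted across all 27022 probe sets kept. That is 7.69% called, where 23.2% of all tested probe sets were called, 11.7% as risen and 11.6% as fallen. The tested member probe sets had a median log2 change of 0.19 and a median absolute change of 0.20, beside -0.01 and 0.24 over all probe sets tested. The 95% interval of every 1 of the 13 changes lay inside a 2-fold rise or fall, the widest bound being a log2 change of -0.93. At 3 of the 13 the unadjusted limma p was under 0.05, as it was at 9824 of all 27022 probe sets tested. Knockouts and controls did not overlap at 7 of 13 probe sets (53.8%), 5 with the knockout higher and 2 lower. Over all tested probe sets that share was 62.9%, made of 31.3% higher and 31.6% lower.

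**Figure D1:**
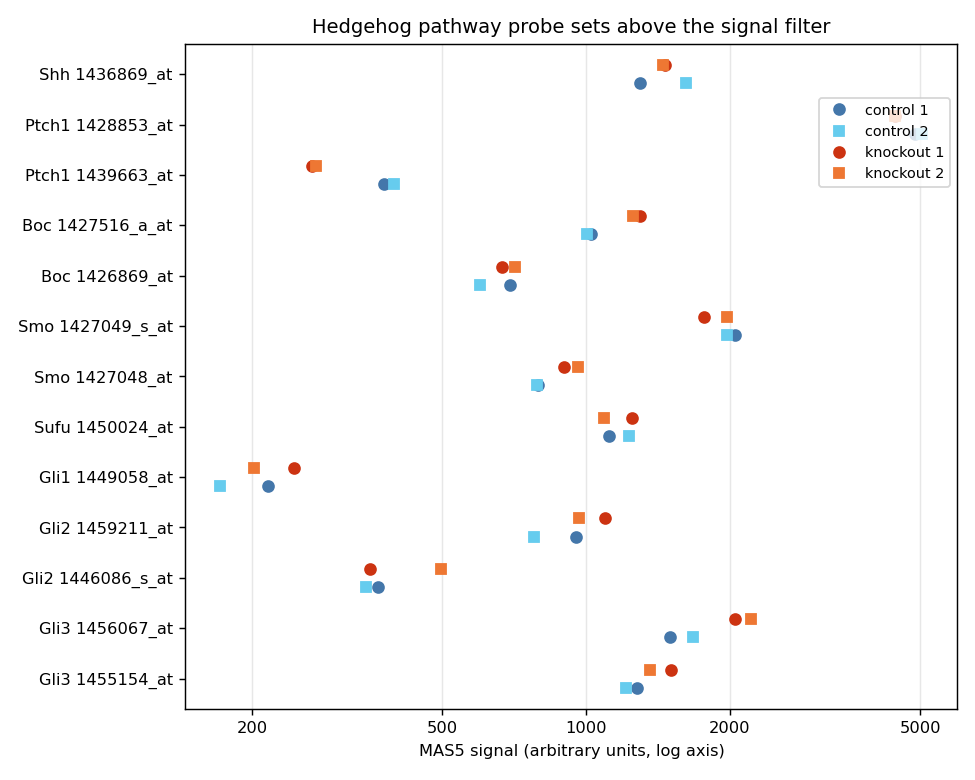
MAS5 signal (log axis) of each of the 13 tested hedgehog probe sets on the 4 arrays; blue points are controls and red or orange points are double knockouts. At the brighter Gli3 probe set both knockouts (2052 and 2215) lie to the right of both controls (1501 and 1674), while the Shh points overlap.

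Shh, the secreted protein made by the floor plate and the zona limitans, was read at 1436869_at as 1296 and 1620 in the controls and 1461 and 1449 in the knockouts. Both knockout values lay between the control values. The log2 change was 0.01 ± 0.13 (SE), with a 95% interval from -0.29 to 0.30 and a limma adjusted p of 0.981. The second Shh probe set, 1427571_at, was dim on all arrays (6.2 to 54) and was not tested. The other hedgehog ligands, Ihh and Dhh, had no probe set above the filter. Their signals were 97.9 to 130.8 for Ihh and 4.4 to 87.6 for Dhh.

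Ptch1, the hedgehog receptor and a target of its own pathway, read lower in both knockouts at both of its tested probe sets, and neither passed. At 1428853_at the signal was 4870 and 5056 in controls and 4436 and 4429 in knockouts (4963 ± 131 against 4433 ± 4.60; SD, n = 2 each). The log2 change there was -0.16 ± 0.08 (SE; interval -0.35 to 0.02; limma adjusted p = 0.191). At 1439663_at it was 378.3 and 396.9 in controls and 267.3 and 271.9 in knockouts (387.6 ± 13.2 against 269.6 ± 3.25). With 16 added to each signal, as in the fit, the knockouts were 0.71 times the controls. That is a log2 change of -0.50 ± 0.19 (interval -0.93 to -0.07; limma adjusted p = 0.0886). The groups did not overlap at either probe set, and the change stayed negative with each array left out (-0.19 to -0.14 and -0.53 to -0.47). This result depended on the analysis: 1439663_at passed when the variance model had no trend with signal (limma adjusted p = 0.0476), and the mean of both probe sets passed too (log2 change -0.33; limma adjusted p = 0.0318). The remaining Ptch1 probe set, 1450824_at, was dim (15.5 to 42.6).

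Boc, an immunoglobulin-family co-receptor that helps Shh bind, was higher in both knockouts at its brighter probe set without passing. At 1427516_a_at the controls read 1026 and 1004 and the knockouts 1299 and 1256 (log2 change 0.33 ± 0.12, SE; interval 0.06 to 0.59; limma adjusted p = 0.077). At 1426869_at the groups overlapped, with 693.4 and 599.9 in controls and 666.1 and 710.4 in knockouts (0.09 ± 0.15; limma adjusted p = 0.709). The remaining Boc probe set was dim (4 to 59.3). Hhip, a membrane protein that captures hedgehog ligands and is a target gene, had 4 probe sets, all under the filter. The brightest, 1455277_at, read 125.6 and 120.4 in controls and 133 and 102.2 in knockouts, with overlapping groups. The other Hhip probe sets read between 7.7 and 130.9, and 1 of them (1421426_at) had both knockouts above both controls (46.7 and 41.9 against 77.8 and 47.3). Over all 11 member probe sets under the filter, signals ran from 4 to 133. When all probe sets were tested without a filter, the lowest adjusted p among these 11 was 0.57 in limma.

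Smo, the seven-pass membrane protein that carries the signal inward, gave probe sets with opposite signs. At 1427049_s_at the controls read 2049 and 1970 and the knockouts 1765 and 1976, which overlap (log2 change -0.10 ± 0.11, SE; limma adjusted p = 0.537). At 1427048_at the controls read 791.7 and 789.7 and the knockouts 898.4 and 960.1, which do not (0.23 ± 0.13; limma adjusted p = 0.246). The suffix of the first marks probes shared between transcripts, so it can also read related RNA. Sufu, the cytoplasmic inhibitor of Gli proteins, read 1116 and 1228 in controls and 1246 and 1089 in knockouts at 1450024_at. The groups overlapped, and the log2 change was -0.01 ± 0.13 (interval -0.29 to 0.28; limma adjusted p = 0.978). Its sign was positive after quantile normalization or median centring. The other Sufu and Smo probe sets were dim (35.1 to 115.4 for Sufu, 31.2 to 51.6 for Smo).

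The Gli factors are the zinc-finger proteins at the end of the pathway. Their promoters are shown because Gli3 is the member that rose, and because Gli2 is the 1 member whose window holds the Gli-binding core ACCACCC on either strand. Each sequence is the run of 250 bases before the annotated start in RefSeq (GRCm38.p6), written 5′ to 3′ along the gene, with matches in capitals. Gli3 is at chr13:15463473-15463722 on the plus strand and Gli2 at chr1:119053620-119053869 on the minus strand.
Gli3: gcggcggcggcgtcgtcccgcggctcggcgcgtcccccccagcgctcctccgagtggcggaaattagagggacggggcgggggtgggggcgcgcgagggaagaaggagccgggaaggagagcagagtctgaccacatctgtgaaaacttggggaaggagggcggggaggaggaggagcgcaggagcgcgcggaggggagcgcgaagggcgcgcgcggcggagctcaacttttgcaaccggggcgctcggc
Gli2: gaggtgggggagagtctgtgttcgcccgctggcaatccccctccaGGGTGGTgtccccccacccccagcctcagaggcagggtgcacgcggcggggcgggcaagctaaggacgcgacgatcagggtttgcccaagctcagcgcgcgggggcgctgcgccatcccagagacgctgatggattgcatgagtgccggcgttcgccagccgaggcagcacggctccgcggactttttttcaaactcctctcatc
The Gli2 match is the reverse complement GGGTGGT, and it begins 205 bases before the start. The core occurred in 3.92% of all 32851 windows of this length. Of the 9 members, 6 had a window in the table, and ACAAAG and ACAATG, letters bound by Sox proteins, occurred in none of these 6 on either strand (they occurred in 16.5% and 10.7% of all windows). A match is only a match of letters.

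Gli3, which acts mainly as a repressor, rose at 1456067_at. The controls read 1501 and 1674 and the knockouts 2052 and 2215 (1587 ± 122 against 2134 ± 116; SD, n = 2 each), and the groups did not overlap. The log2 change was 0.42 ± 0.11 (SE; interval 0.17 to 0.68; limma adjusted p = 0.0223), 1.34-fold. At 1455154_at the knockouts were also above the controls, with 1280 and 1215 against 1504 and 1360. That change was smaller and did not pass (0.20 ± 0.12; limma adjusted p = 0.273). The third probe set, 1450525_at, read 105.9 to 129.5 with overlapping groups and was under the filter. The Gli3 call rested on few arrays. It held without control 2 (0.50; limma adjusted p = 0.0199) and was lost without control 1 (0.35; adjusted p = 0.119), knockout 1 (0.48; adjusted p = 0.0669) or knockout 2 (0.37; adjusted p = 0.123). It was also lost when the variance had no trend with signal (limma adjusted p = 0.0829).

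Gli2, the main activator, and Gli1, a target and amplifier of the signal, did not pass. Gli2 read 952 and 777.2 in controls and 1095 and 967.2 in knockouts at 1459211_at. The lower knockout lay just above the higher control (log2 change 0.25 ± 0.15, SE; interval -0.07 to 0.58; limma adjusted p = 0.244). At 1446086_s_at the groups overlapped, with 367.8 and 346.7 against 352.8 and 497.3 (0.22 ± 0.21; limma adjusted p = 0.478), and the sign turned without knockout 2 (-0.017). Gli1 had a single probe set, 1449058_at, close to the filter at a signal of 154.6. It read 215.5 and 171.8 in controls and 244.8 and 202.4 in knockouts, with overlapping groups. Its log2 change of 0.19 ± 0.25 had the widest spread of the 13 (interval -0.37 to 0.76; limma adjusted p = 0.626). In data simulated from this comparison with 27022 probe sets, 50 were changed at each size. There 0% of changes by 25% and 20% of 1.5-fold, 64% of 2-fold and 92% of 3-fold changes were recovered. Far fewer probe sets were changed in the simulation than the 6277 called in the data, which makes its adjusted threshold stricter. Its recovery therefore does not give the share of member changes that would be found.

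**Figure D2:**
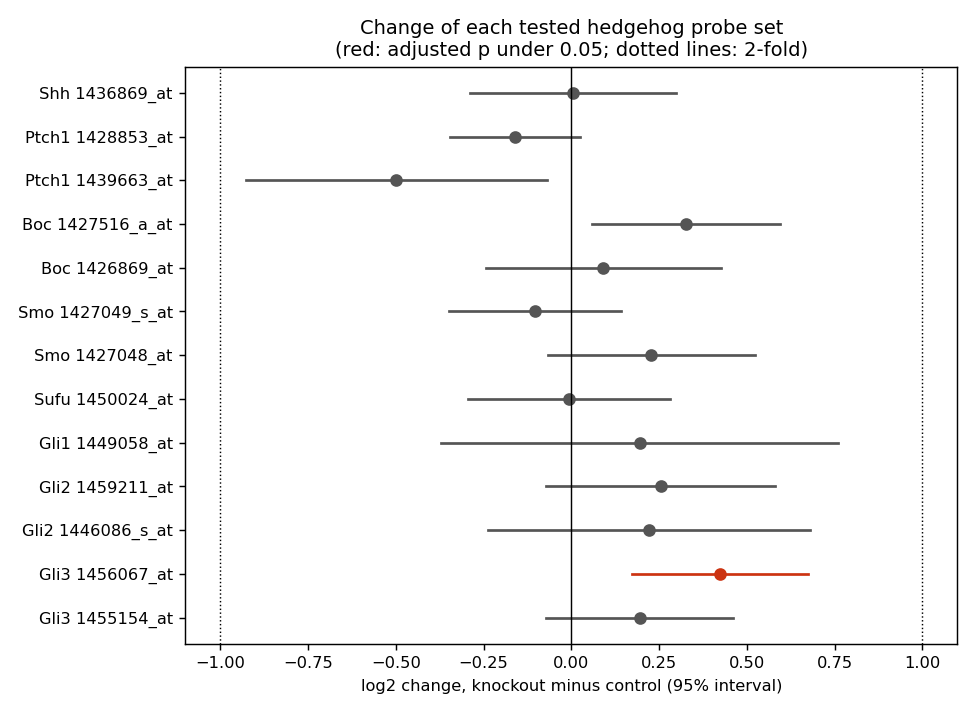
Log2 change, knockout minus control, of each tested hedgehog probe set, with bars for the 95% interval of the limma fit and dotted lines at a 2-fold change. Gli3 1456067_at at 0.42 is the 1 point past the threshold, and all 13 bars end inside the dotted lines.

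**Figure D3:**
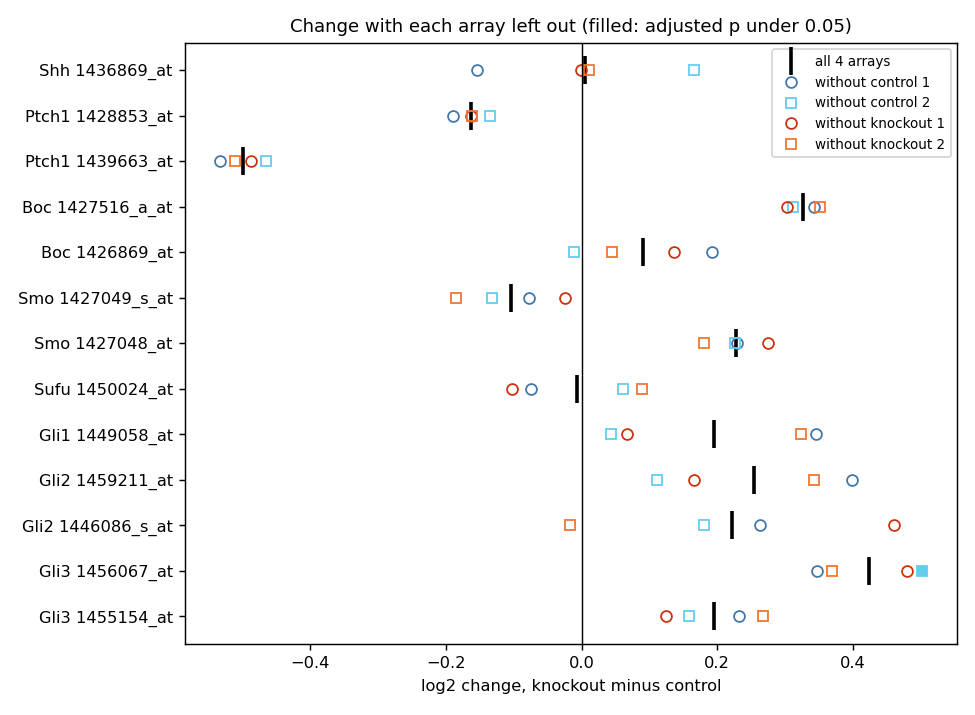
Log2 change of the same probe sets with all 4 arrays (black bars) and with each array left out in turn (open or filled symbols, filled where the adjusted p is under 0.05). The 1 filled symbol is Gli3 1456067_at without control 2 (0.50), and the points of Shh and Sufu fall on both sides of 0.

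The wider pathway was read from lists of genes by role, each gene at its brightest tested probe set. Over the 7 lists of signalling components and targets, 54 genes were tested, 4 rose, 5 fell and 45 did not pass. That is 16.7% called, where 27.3% of all 12489 genes were called, 16.3% as risen and 11% as fallen. The median log2 change of the 54 was 0.08, beside 0.06 over all genes. The count was 9 and fell to 3 without knockout 1, and to 4 without the variance trend.

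Gpr161 fell furthest. It encodes a G protein-coupled receptor of the primary cilium that raises protein kinase A activity and so keeps the pathway off. At 1436459_at it read 3845 and 4386 in controls and 1271 and 1279 in knockouts. The groups were far apart, and the log2 change was -1.68 ± 0.11 (SE; limma adjusted p = 1.49e-05). The call held in every alternative run (-1.77 to -1.58). Among 16 tested cytoplasmic regulators, each at its brightest probe set, it was the 1 that fell, 0 rose and the median log2 change was 0.06. Stk36, a kinase related to fly Fused, came close to the threshold (-0.53; limma adjusted p = 0.0504). Kif7, Spop and Csnk1a1, which handle Gli proteins, had changes between -0.03 and 0.07 at their brightest probe sets and did not pass at any. The probe sets of Gsk3b, a kinase that phosphorylates Gli proteins, disagreed. The brightest, 1454958_at, overlapped (0.0031; limma adjusted p = 0.984), while the other 5 had both knockouts under both controls. Of these, 1437001_at (-0.36; limma adjusted p = 0.0178) and 1439931_at (-0.44; limma adjusted p = 0.0239) fell. Prkar1a also differed between probe sets. Its brightest, 1452032_at, did not pass (0.15, limma adjusted p = 0.131), 1425550_a_at rose (0.38, limma adjusted p = 0.014) and 1447635_at overlapped (-0.27).

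Among genes that add lipid to the ligand or release it, Scube3, a secreted protein of a family that aids hedgehog release, fell from 856.1 and 722 to 367.4 and 481.1. The groups did not overlap (log2 change -0.88 ± 0.18, SE; limma adjusted p = 0.0064), and the call was lost without knockout 1 (-0.69; adjusted p = 0.0658). Disp1, Disp2 and Scube2 did not pass (0.16, 0.33 and 0.45). Among 6 tested receptors and co-receptors 1 rose and 0 fell, with a median of 0.31. Gas1, a membrane-anchored co-receptor, rose from 4153 and 3226 to 4899 and 5380 at 1416855_at (0.49 ± 0.12; limma adjusted p = 0.0158). Gas1 at 1448494_at overlapped and did not pass (0.29; limma adjusted p = 0.318). The Gas1 call was lost without control 2 (0.30), knockout 1 (0.55) or knockout 2 (0.42), without the filter, without the variance trend and as a mean of probe sets (0.39). Cdon, the co-receptor related to Boc, read 2862 and 2341 in controls and 2985 and 3398 in knockouts (0.30 ± 0.12; limma adjusted p = 0.102). It passed without control 1 (0.44; limma adjusted p = 0.0324). Lrp2, an endocytic receptor of Shh, did not pass (0.48; limma adjusted p = 0.143).

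Among 7 tested Gli and Zic genes, Gli3 rose, 2 fell and the median was -0.14. Zic proteins are zinc-finger factors related to the Gli family that act in dorsal neural tissue and cerebellum. Zic2 read 979.9 and 1059 in controls and 557.5 and 663.8 in knockouts (-0.73 ± 0.15, SE; limma adjusted p = 0.006). Zic5 read 2782 and 2835 against 1982 and 2093 (-0.46 ± 0.10; limma adjusted p = 0.0086), and a second Zic5 probe set fell too (-0.42). Neither of these calls held without knockout 1 (-0.61 and -0.42; adjusted p = 0.0583 and 0.055), and that of Zic5 was lost without the variance trend. Of 13 tested genes of transport in the primary cilium, the organelle where Smo acts, Ift57 rose (0.37) and 0 fell, with a median of 0.11. The Ift57 call was lost with any 1 array left out (0.35 to 0.39) and without the variance trend.

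Among 9 tested target genes 1 rose, 1 fell and the median was 0.04. Ccnd2, a G1 cyclin, read 19689 and 18632 in controls and 24015 and 23839 in knockouts (log2 change 0.32 ± 0.06, SE; limma adjusted p = 0.0043), and 5 more of its 7 probe sets rose. That call was lost without the variance trend (limma adjusted p = 0.115). Bcl2, an inhibitor of apoptosis, read 1588 and 1702 against 1113 and 1099 (-0.56 ± 0.12; limma adjusted p = 0.0068) and held with each array left out (-0.61 to -0.51). Ccnd1 and Mycn, cell cycle genes induced by Shh in precursors, had changes of 0.24 and -0.06 and did not pass. The other genes of this list are the members above, and Foxf1, Foxf2 and Rab34, with changes of 0.09, 0.04 and -0.01.

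**Figure D4:**
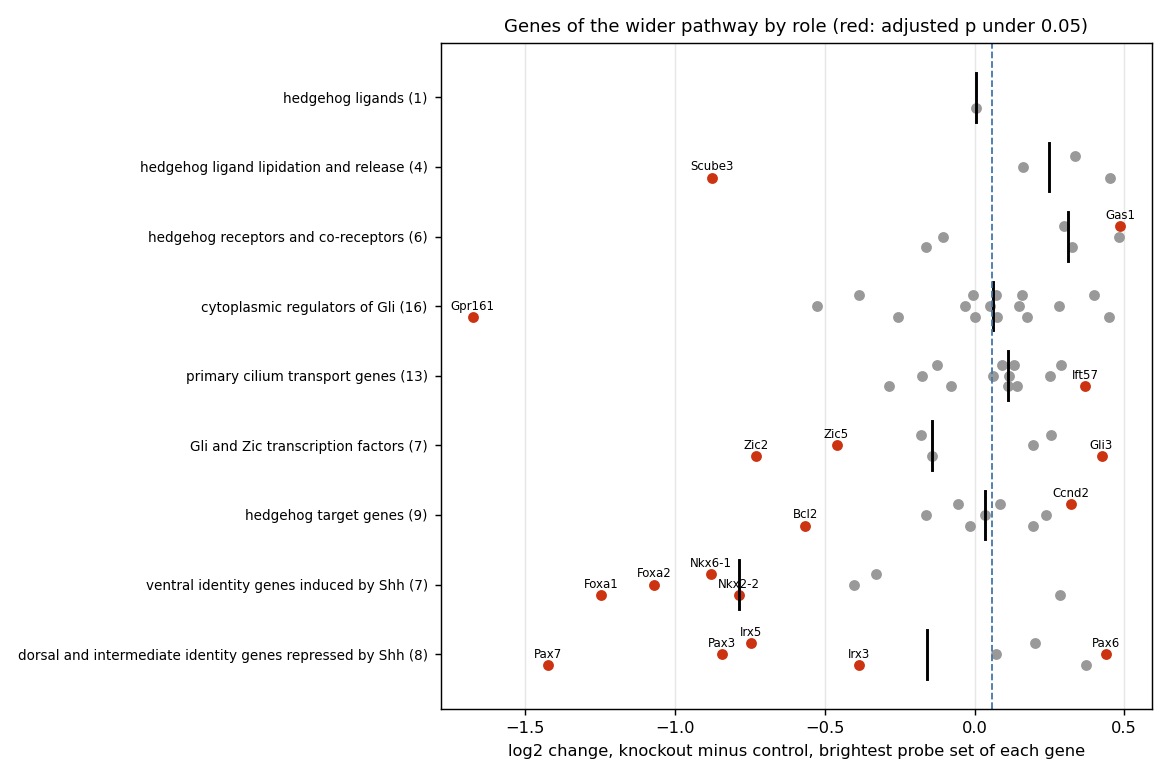
Log2 change of each tested gene of the wider pathway, by role, with the number tested in brackets; red points passed the threshold, black bars are list medians and the dashed line is the median of all genes (0.06). Gpr161 at -1.68 lies furthest left, and the ventral identity list has the lowest median (-0.79).

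Several genes that Shh switches on in ventral neural tissue fell. Of 7 tested, 4 fell, 0 rose and 3 did not pass, with a median log2 change of -0.79. Foxa1, a forkhead factor of the floor plate and ventral midbrain, read 852.2 and 811.6 in controls and 412.7 and 281.8 in knockouts (-1.25 ± 0.19, SE; limma adjusted p = 0.0015). Foxa2, the related factor that specifies the floor plate, read 363.7 and 414.3 against 168.6 and 184.6 (-1.07 ± 0.22; limma adjusted p = 0.0063). Nkx6-1, a homeobox factor of ventral progenitor domains, read 290.7 and 295.6 against 174.8 and 131.7 (-0.88 ± 0.25; limma adjusted p = 0.0289). Nkx2-2, a homeobox factor of the domain next to the floor plate, read 436.6 and 332.2 against 209.5 and 219.1 (-0.79 ± 0.22; limma adjusted p = 0.0274). In all 4 genes both knockouts lay under both controls. Olig1, Sim1 and Olig2 did not pass (-0.33, -0.40 and 0.29), though Olig1 did without control 1 (-0.59; limma adjusted p = 0.017). The count called was 1 without knockout 1, 2 without knockout 2, 2 without the filter and 1 with a filter at the 60th percentile, which leaves fewer genes. Foxa1 passed with each array left out (-1.51 to -0.98), Foxa2 was lost without knockout 1 (-1.01; adjusted p = 0.0515), Nkx2-2 without control 1 (-0.60), knockout 1 (-0.76) or knockout 2 (-0.82), and Nkx6-1 with any 1 array left out (-1.07 to -0.70). Nkx2-2 and Nkx6-1 were also lost without the filter. The knockout mean of Nkx6-1 lay under the signal cutoff of the filter, so this gene was tested through its controls.

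The promoter windows of Foxa1 and Foxa2 are shown because these related genes fell together and each has a window with the Sox letters ACAAAG, or CTTTGT on the other strand, in capitals. Foxa1 is at chr12:57546112-57546361 and the Foxa2 window, 1 of 3 that RefSeq gives for that gene, at chr2:148045465-148045714, both on the minus strand of GRCm38.p6 and written along the gene.
Foxa1: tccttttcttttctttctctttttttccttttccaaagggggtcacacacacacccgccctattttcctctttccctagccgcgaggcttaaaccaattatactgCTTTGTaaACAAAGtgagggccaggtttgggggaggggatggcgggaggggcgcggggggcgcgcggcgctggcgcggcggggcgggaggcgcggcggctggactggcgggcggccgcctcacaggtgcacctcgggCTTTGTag
Foxa2: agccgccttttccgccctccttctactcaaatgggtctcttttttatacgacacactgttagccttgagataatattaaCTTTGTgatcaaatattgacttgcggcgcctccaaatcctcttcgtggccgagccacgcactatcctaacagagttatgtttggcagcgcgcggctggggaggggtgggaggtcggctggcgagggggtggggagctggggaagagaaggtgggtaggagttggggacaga
The Foxa1 window holds 3 matches, which begin 145, 137 and 8 bases before the start, and the Foxa2 window shown 1, at 171, while the other 2 Foxa2 windows hold 0. Of the 65 pathway genes with a window, 7 hold these letters, a smaller share than the 16.5% of all windows, though a gene can have several windows. Of these 7, Foxa1 and Foxa2 fell, Pax6 rose, Dbx1 and Dync2h1 did not pass, and Dbx2 and Scube1 were not tested.

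Several genes listed here as switched off by Shh, in dorsal and intermediate tissue, fell as well. Whether Shh represses each of them in every brain region was not tested. Of 8 tested, 4 fell, 1 rose and 3 did not pass, with a median of -0.16. Pax7, a paired-box factor of the dorsal midbrain and spinal cord, read 716 and 889.5 in controls and 356.6 and 230.8 in knockouts (-1.42 ± 0.22, SE; limma adjusted p = 0.0014). Pax3, its close relative, read 791.5 and 751.7 against 450.2 and 398 (-0.84 ± 0.16; limma adjusted p = 0.0039). The Iroquois gene Irx5 read 1393 and 1337 against 835.7 and 780 (-0.75 ± 0.13; limma adjusted p = 0.0024), and the related Irx3 read 2505 and 2666 against 2021 and 1927 (-0.39 ± 0.10; limma adjusted p = 0.0218). Pax6, a factor of cortical and intermediate progenitors, rose from 2501 and 2226 to 3309 and 3104 (0.44 ± 0.10; limma adjusted p = 0.0129). Dbx1, Msx1 and Gsx2 had changes of 0.20, 0.37 and 0.07 and did not pass. The count called was 3 in place of 5 without control 2, knockout 1 or the variance trend. The calls of Pax7, Pax3 and Irx5 held with each array left out. That of Pax6 was lost without control 2 (0.36), knockout 1 (0.39) or the variance trend, and that of Irx3 without control 2 (-0.34), knockout 1 (-0.42) or knockout 2 (-0.35) after median centring (-0.35) and without the variance trend. Over both identity lists 8 of 15 genes fell (53.3%) and 1 rose, where 11% of all genes fell. The lists were chosen with earlier results of these data known, so these shares describe the lists and are not a test. The 8 include Nkx6-1, which was tested through its controls.

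**Figure D5:**
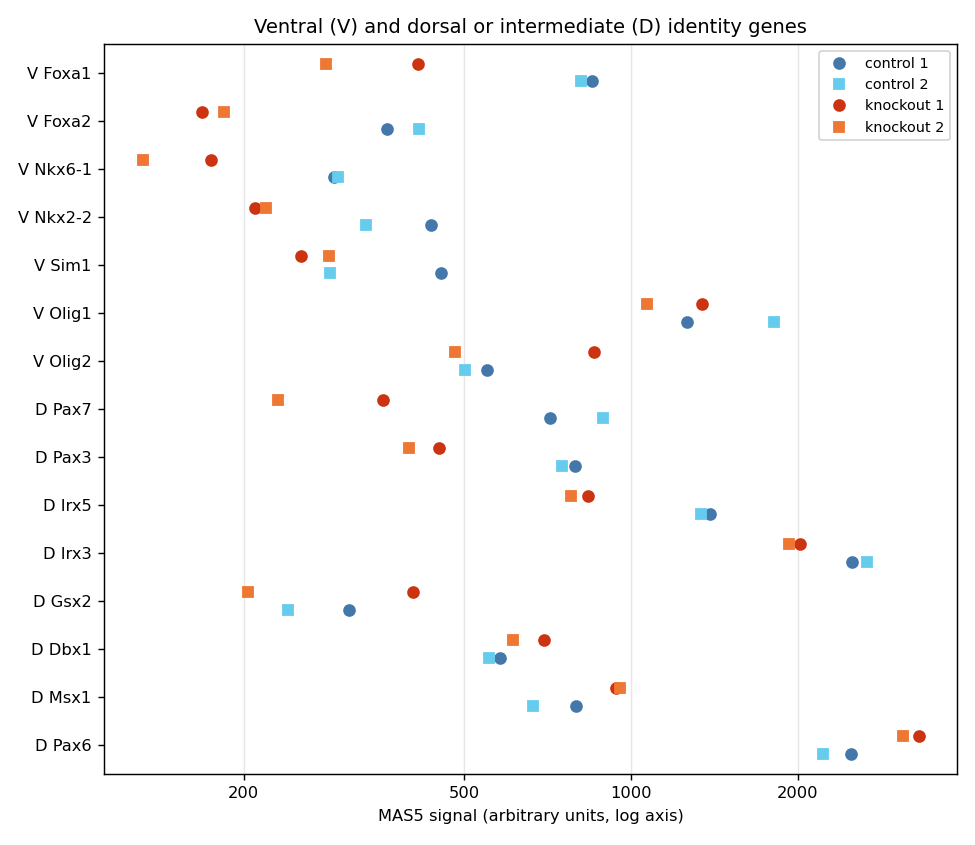
MAS5 signal (log axis) of the 15 tested identity genes on the 4 arrays, ventral genes marked V and dorsal or intermediate genes marked D; blue points are controls and red or orange points double knockouts. Foxa1, Foxa2, Nkx6-1, Nkx2-2, Pax7, Pax3, Irx5 and Irx3, which fell, and Sim1, which did not pass, have both knockouts to the left of both controls. Pax6, which rose, and Dbx1 and Msx1, which did not pass, have them to the right.

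Markers of several cell types differed between the groups as well. The counts here and in the next paragraph stand beside 27.3% of all genes called, 16.3% as risen and 11% as fallen. The floor plate (25% called) and oligodendrocyte precursor (20% called) lists did not exceed that share. Summed signals are given for each list over its genes on the array, so bright probe sets weigh most in a sum. In RNA of whole brain, fewer cells of a type and less RNA per cell cannot be told apart. Of 8 ventricular zone progenitor markers, cells in which Gli3 is made, 3 rose (Nes by 0.61, Pax6 by 0.44 and Vim by 0.22) and 0 fell. Slc1a3 (0.27), Hes1 (0.08), Fabp7 (0.04), Sox2 (-0.05) and Hes5 (-0.17) did not pass, and all of these but Slc1a3 overlapped. Some dimmer Slc1a3 probe sets rose (0.46 at 1426340_at) and others did not. Summed signals, carried mostly by Fabp7 and Vim, were 69769 to 74728 in controls and 77443 to 79480 in knockouts. Nes was lost without knockout 1 (0.55) and as a mean of its probe sets (0.22), and Vim without control 1 (0.27), control 2 (0.17) or knockout 2 (0.15) and under either other scaling (0.18 and 0.26), without the filter and without the variance trend. Of 6 neuronal markers 5 fell, with sums of 109468 to 113139 against 75454 to 76857. Of 4 tested floor plate markers, the cells that make Shh in the ventral midline, Foxa2 alone fell, while Ntn1 and Slit1 had changes of -0.05 and 0.06. The floor plate sums, carried mostly by Ntn1 and Spon1, overlapped (6222 to 6896 against 5824 to 6640) and do not show the change of Foxa2. Of 5 markers of cerebellar granule precursors, which divide in response to Shh and express Zic genes, 3 fell (log2 changes of -1.11 for Atoh1, -1.06 for Barhl1 and -0.89 for Meis1) and Pax6 rose, with sums, carried mostly by Zic1, of 22813 to 23369 against 20473 to 20661. Atoh1 did not pass without knockout 1 (-1.09) or without knockout 2 (-1.12), and neither did Barhl1 without knockout 2 (-0.70) or without the variance trend. Without the filter neither gene passed (limma adjusted p = 0.0748 and 0.0592). Both Atoh1 knockouts (121.4 and 124) lay under the signal cutoff of the filter, so Atoh1 was tested through its controls.

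Of 5 oligodendrocyte precursor markers 1 rose (Pdgfra, 0.36, lost with any 1 array left out) and 0 fell, and the sums overlapped (3664 to 4380 against 4070 to 4610). Sox10 was not called at the slightly brighter 1424985_a_at (0.15). It rose at 1451689_a_at, where it read 102.6 and 107.1 in controls and 204.2 and 370.8 in knockouts (1.27, limma adjusted p = 0.0169). Both controls lay under the signal cutoff of the filter, so this probe set was tested through its knockouts. Without the filter it did not pass (limma adjusted p = 0.0692). Markers of non-neural cells rose as well. Among microglial markers 7 of 7 tested rose, with C1qa at 2.14 and sums of 5565 to 6408 against 19071 to 21105. Of 4 endothelial markers 3 rose (sums 4724 to 4977 against 6421 to 6654), and the calls of Cdh5, Kdr and Cldn5 were each lost in 4 of 14 other settings. Of 7 mesenchymal markers 4 rose (28259 to 29053 against 36891 to 38772), and the calls of Postn, Col1a2 and Col3a1 were each lost in 1 setting. Of 6 tested choroid plexus markers 2 rose and Otx2 fell (-0.51, lost without the variance trend). The choroid plexus sums, carried mostly by Ttr, were 44567 to 44880 against 46973 to 50413, and the rise of Folr1 was lost in 2 of 14 settings. No marker was at 0. The part of these cell types in the changes of Gli3, Zic2, Zic5 and the identity genes was not tested.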

How the data were processed

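Total RNA (100 ng per array) of whole brains at embryonic day 14.5 was amplified and labelled with biotin for 1-colour Affymetrix arrays, per the labels' protocols. The authors deposited linear signal intensities, and the submitters' processing notes name MAS5 version 5.0. Per the deposited values, the mean after trimming 2% at either end was 1000 on each array, so a shift shared by most transcripts would have been removed. The genome build behind the probe annotation was not given in the sources used here. Groups and replicate numbers came from the sample titles. Probe sets were named from the platform annotation where it gave 1 symbol (34945 of 45037), and all 9 member gene IDs matched RefSeq. No detection calls were used.

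Signals were taken as log2(signal + 16), so a fold change understates that of dim genes. Probe sets with a mean above 7.41 (the 40th percentile, signal 154.6) were fitted in limma 3.58.1 (R 4.3.3) with lmFit and eBayes with a variance trend, knockout minus control, with 2 residual and 8.33 prior degrees of freedom. Benjamini-Hochberg adjustment ran over all probe sets kept, and rose, fell and passed mean an adjusted p under 0.05. Intervals are 95% and unadjusted. Each listed gene took its probe set with the highest mean. With 2 arrays a group, precision is low. The fit was tested on simulated data. An exact permutation test of 2 against 2 arrays cannot go below p = 0.333 and was not used.

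The members and gene lists were chosen with earlier results of these data known. Named genes are all members, Sox4 and Sox11, up to 4 called genes per pathway list and up to 3 per marker list by size, and the related ligands and co-receptors. Genes named for their values or to complete a count (Irx3, Vim, Hes1, Hes5, Fabp7, Sox2, Sox10, Spon1, Ttr, Zic1, Stk36, Kif7, Gsk3b, Prkar1a, Spop, Csnk1a1, Disp1, Disp2, Scube1, Scube2, Lrp2, Ccnd1, Mycn, Foxf1, Foxf2, Rab34, Sim1, Dbx1, Dbx2, Dync2h1, Msx1, Gsx2, Eif2s3y and Xist) were added after the values were seen. Other settings tried were other scalings (quantile, median), other pseudocounts (1, 64), no filter or one at the 60th percentile, a variance model without trend or with robust fitting, omission of each array, the replicate number as a block, and averaging the probe sets of a gene. Counts of calls within the identity lists and outside them were added to these settings after the data were seen.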

Additional observations from a re-analysis of the deposited data

How the results depend on the processing

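Without the variance trend 3114 probe sets were called in place of 6277, 0 member genes in place of 1 and 11 pathway list genes in place of 18; 1 member probe set was still called, and it was Ptch1 1439663_at and not Gli3. As a mean of probe sets 2 member genes were called, Gli3 (log2 change 0.31) and Ptch1 (-0.33). With single arrays left out the calls ranged from 3132 to 5422 probe sets, 0 to 1 member probe sets, 0 to 1 member genes and 7 to 17 pathway list genes. A lone array is then taken to vary like the pair. The other settings kept these counts within 1.5 times and the Gli3 call. The replicate number as a block called 6844 probe sets, 1 member probe set and 19 pathway list genes and did not change the call of any member. Deviations of same-numbered arrays correlated at 0.00 across probe sets, so the numbers were not taken as pairs.

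Signs turned for some changes that did not pass in any setting. Sufu was 0.0098 after quantile normalization and 0.035 after median centring, and ran from -0.10 to 0.090 with single arrays left out. Under the same omissions Shh ran from -0.15 to 0.17, Boc 1426869_at from -0.011 to 0.19, Gli2 1446086_s_at from -0.017 to 0.46, Slit1 from -0.14 to 0.26, Ntn1 from -0.15 to 0.049 and Olig2 from -0.12 to 0.69. Slit1 was -0.12 as a mean of probe sets. The cause of these shifts was not tested. Dim signal limits Hhip, Ihh and Dhh, which had no tested probe set, and Gli1.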
